A study of Homo sapiens with 4 samples.

Results

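The genes described here are 31 human genes of homologous recombination, Fanconi anaemia repair, damage signalling and mismatch repair, each chosen by its symbol and each found once among the 20812 gene targets measured. They were followed in the colon cancer line HCT116 by amplicon sequencing of messenger RNA with 1 short PCR target per gene. The 4 groups were cells overexpressing human IDO1 with 1 mM indole, the same line with the solvent DMF, wild type cells with 1 mM indole, and wild type cells with DMF, all for 24 h. IDO1 is an enzyme that breaks down tryptophan, and indole is a bacterial product of tryptophan. Each group was 1 library, so the intervals given cover counting error only, with reads taken as independent. Variation between cultures and libraries is part of every difference and cannot be estimated. The labels name neither the vector nor whether the IDO1 line is 1 clone.

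Homologous recombination repairs broken DNA by copying an intact sister chromatid. The MRE11, RAD50 and NBN complex finds the break and the ends are trimmed to single strands. BRCA1, PALB2 and BRCA2 then act with further factors to start strand exchange. Fanconi proteins detect crosslinked DNA and attach ubiquitin to FANCD2 and FANCI. The kinases ATM and ATR signal damage to CHEK2 and CHEK1. Many of these genes are transcribed mainly in S and G2 phase, when a sister chromatid is at hand. HCT116 is known as a mismatch repair deficient line.

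Library totals were 19069730 reads for the IDO1 line after indole, 22736172 for that line after DMF, 18283862 in wild type with indole and 22673148 in wild type with DMF. IDO1 itself had 2440 and 3451 reads in the IDO1 line with indole and with DMF, against 2 and 0 reads in wild type. The epithelial marker EPCAM was detected in every library (5257 to 7045 reads), while the enterocyte marker VIL1 had 0 to 2, and the leukocyte gene PTPRC and the fibroblast gene DCN had 0. Levels are given as CPM, read counts relative to library size after TMM scaling of the 4 libraries. Targets differ in PCR efficiency, so levels are compared between libraries for 1 gene and not between genes. Counts use the 28 members, among 9884 genes, with a mean of at least 5 CPM over the 4 libraries. ATM, BRIP1 and CHEK2 fell below that minimum and are described apart.

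**Figure D1:**
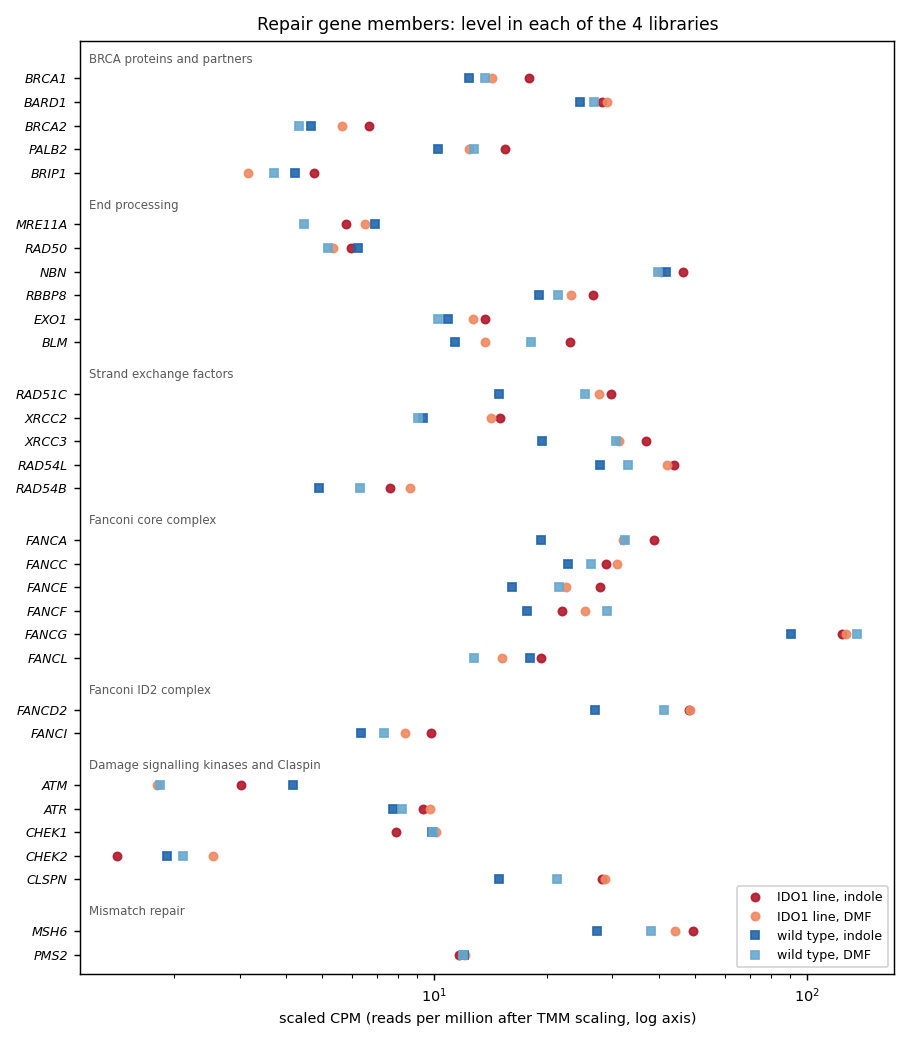
Scaled CPM (log axis) of each of the 31 repair genes, grouped by role, in the IDO1 line (circles) and in wild type (squares), each with indole (dark) and DMF (light). For RAD51C, FANCA, FANCD2, CLSPN and MSH6 the wild type library with indole sits to the left of the other 3.

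The first comparison asked how the repair genes of wild type cells stood after indole. A subset of them was lower with indole, led by RAD51C, FANCA and FANCF, while the break-sensing genes MRE11A, RAD50 and NBN were not. Of 28 members, 7 were at least 1.5-fold lower (RAD51C, FANCA, FANCF, XRCC3, BLM, FANCD2 and FANCG), where 9.15% of all genes were. By contrast 0 members were at least 1.5-fold higher, where 6.95% of all genes were, and 0 were 2-fold apart, where 1.18% of all genes were 2-fold higher and 1.40% lower. The median log2 ratio, taken on CPM plus 1, was -0.19 over the members and -0.03 over all 9884 genes. Restricted to genes with a mean of 5 to 50 CPM, the range of 27 members, 6 members were lower, where 6.57% of such genes were, and 0 higher, where 8.83% were. Fewer cells in the phases that transcribe a gene and less RNA per cell cannot be told apart in bulk RNA.

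The scaling sets how many members pass that fold. Scaled by library totals instead, all genes had a median of 0.14 and the members -0.03, and 0 members were 1.5-fold lower, where 4.71% of all genes were, and 2 higher, where 13.7% were. Taken relative to the median of all genes, library totals gave 5 members lower, where 8.10% of all genes were, and a median of -0.17. Wild type with indole also stood apart as a library, with a score of 33.6 on the first principal component, against -15.6 and -13.8 for the IDO1 line after indole and after DMF and -4.13 for wild type after DMF. Every value for this comparison rests on that library.

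**Figure D2:**
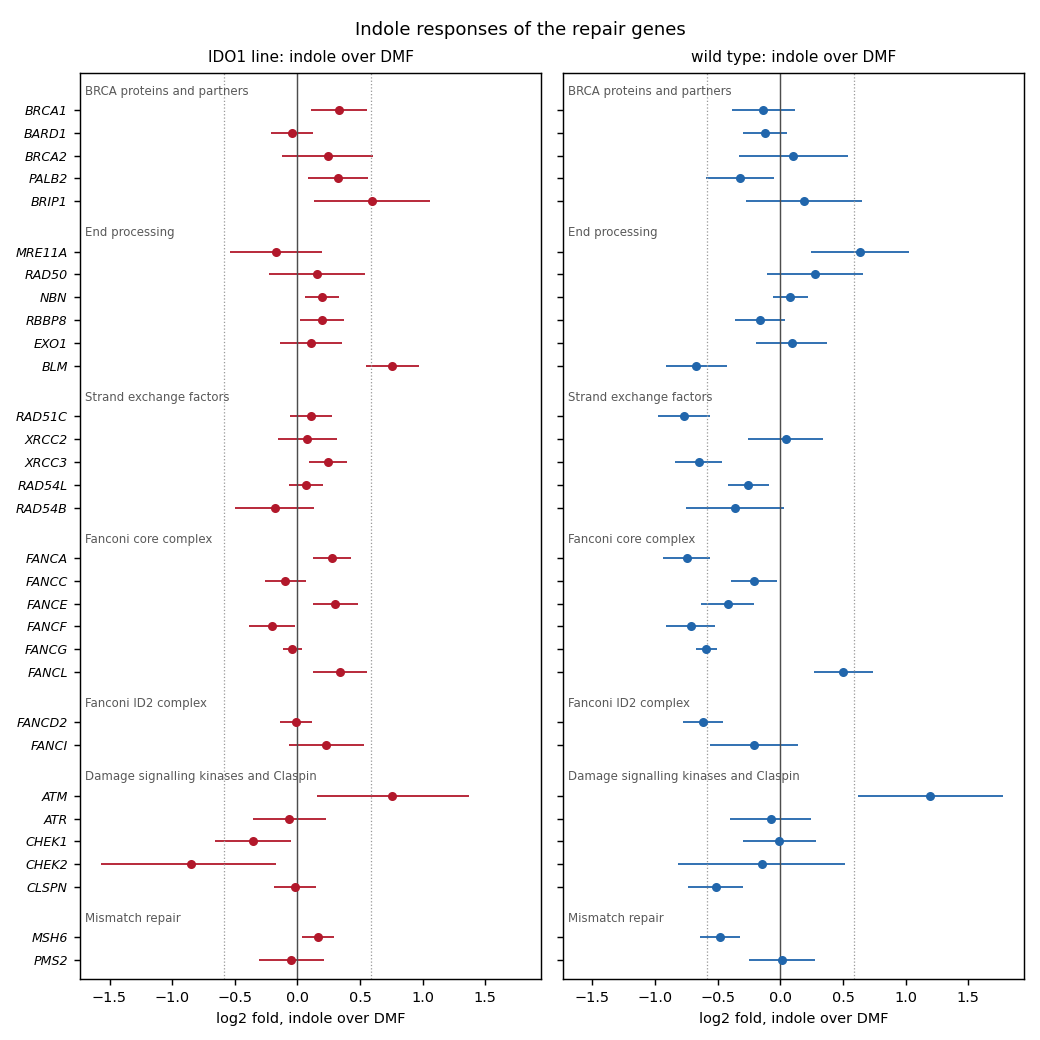
Log2 fold of indole over DMF for each repair gene in the IDO1 line (left) and in wild type (right). Bars are 95% intervals of counting error, and dotted lines mark 1.5-fold. In wild type RAD51C, FANCA, FANCF, XRCC3, BLM, FANCD2 and FANCG lie left of the line for 1.5-fold lower. MRE11A and ATM lie right of the line for 1.5-fold higher there. In the IDO1 line BLM, ATM and BRIP1 lie right of that line, and CHEK2 lies left of the line for 1.5-fold lower. ATM, BRIP1 and CHEK2 are below the expression minimum.

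Among the Fanconi core complex, the ubiquitin ligase assembly that modifies FANCD2 and FANCI, 5 of 6 genes were lower with indole in wild type and FANCL was higher. FANCA, a scaffold of the complex, had 19.3 CPM with indole against 32.4 CPM with DMF, and was 1.68-fold lower (1.48 to 1.91). FANCF, an adaptor, had 17.7 CPM with indole and 29 CPM with DMF, and was 1.64-fold lower (1.44 to 1.88). FANCG, which pairs with FANCA, had 90.5 CPM with indole and 136 CPM with DMF, 1.51-fold lower (1.42 to 1.60). Its log2 ratio of -0.59 lies at the edge of the 1.5-fold call. FANCE, the contact of FANCD2 within the complex, had 16.1 CPM with indole and 21.5 CPM with DMF. FANCC, the partner of FANCE, had 22.8 and 26.4 CPM with indole and with DMF. These were 1.34-fold (1.15 to 1.55) and 1.15-fold (1.02 to 1.31) lower, short of the 1.5-fold call. FANCL is the subunit that carries the ligase activity. It had 18.0 CPM with indole and 12.7 CPM with DMF, 1.42-fold higher (1.20 to 1.66). The catalytic subunit thus stood opposite to the other core genes among the members in this library.

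FANCD2, the protein that the core complex modifies, had 27.0 CPM with indole against 41.3 CPM with DMF in wild type, and was 1.53-fold lower (1.37 to 1.71). Its partner FANCI had 6.36 CPM with indole and 7.33 CPM with DMF, and the interval of the ratio, 0.678 to 1.10, includes 1. Summed over the 6 core genes, the level was 184 CPM with indole and 258 CPM with DMF in wild type. The FANCD2 and FANCI sum was 33.3 CPM with indole and 48.7 CPM with DMF. In the IDO1 line the core sum was 260 CPM with indole and 253 CPM with DMF, and the FANCD2 and FANCI sum 57.8 and 56.7 CPM.

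RAD51C, XRCC2 and XRCC3 belong to complexes that help start strand exchange on single-stranded DNA. RAD51C, present in both known complexes, had 14.9 CPM with indole against 25.3 CPM with DMF, and was 1.70-fold lower (1.47 to 1.97). XRCC3, its partner, had 19.5 CPM with indole and 30.6 CPM with DMF, and was 1.57-fold lower (1.38 to 1.79). XRCC2, which belongs to the other complex, had 9.30 and 9.03 CPM with indole and with DMF, a ratio of 1.03 (0.836 to 1.27). RAD51C and XRCC3 were thus lower and XRCC2 was not, though RAD51C belongs to the complex of XRCC2 as well. RAD54L, a motor protein that acts during strand exchange, had 27.7 CPM with indole and 33.1 CPM with DMF, 1.19-fold lower (1.07 to 1.34). For its relative RAD54B the levels were 4.91 and 6.30 CPM, and the interval of the ratio, 0.593 to 1.02, includes 1.

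Genes that process or unwind DNA ends were not uniform. BLM, a helicase that dissolves crossed strands and helps trim ends, had 11.4 CPM with indole against 18.1 CPM with DMF in wild type, and was 1.59-fold lower (1.35 to 1.89). MRE11A, the nuclease of the break-sensing complex, had 6.92 CPM with indole and 4.47 CPM with DMF, a ratio of 1.55 (1.18 to 2.04) from 134 and 95 reads. On the scale of CPM plus 1 its log2 ratio was 0.54, under the 1.5-fold call. RAD50, the ATPase of the complex, had a ratio of 1.21 (0.926 to 1.58), and NBN, its signalling subunit, a ratio of 1.06 (0.958 to 1.16). The exonuclease EXO1 had a ratio of 1.06 (0.876 to 1.29) and RBBP8, the CtIP cofactor that starts trimming, 0.894 (0.777 to 1.03). Of these 6 genes, BLM alone was lower beyond counting error.

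BRCA genes other than PALB2 lay near their DMF level with indole in wild type. BRCA1 had 12.4 CPM with indole and 13.6 CPM with DMF, and its partner BARD1 24.5 and 26.7 CPM. The intervals of both ratios, 0.763 to 1.08 and 0.812 to 1.04, include 1. BRCA2, a mediator of strand exchange, had 4.65 CPM with indole and 4.33 CPM with DMF, a ratio of 1.08 (0.795 to 1.45). PALB2, the bridge between BRCA1 and BRCA2, had 10.2 CPM with indole and 12.8 CPM with DMF and was 1.25-fold lower (1.04 to 1.51).

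Of the damage signalling genes past the minimum, CLSPN alone was lower beyond counting error. CLSPN, the adaptor through which ATR activates CHEK1, had 14.9 CPM with indole against 21.3 CPM with DMF in wild type, 1.43-fold lower (1.23 to 1.66). ATR and CHEK1 had ratios of 0.947 (0.756 to 1.19) and 0.995 (0.814 to 1.22). ATM, the kinase that responds to broken ends, had 81 reads with indole and 39 with DMF, a ratio of 2.28 (1.54 to 3.44), but at a mean of 2.71 CPM it lies under the minimum. In the IDO1 line it had 58 reads with indole and 41 with DMF, a ratio of 1.69 (1.11 to 2.58). ATM was thus higher with indole in both lines, from few reads. CHEK2, the target of ATM, had 37 reads with indole and 45 with DMF in wild type, a ratio of 0.904 (0.569 to 1.43).

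Mismatch repair held 2 members that differed. MSH6, which recognises mismatches, had 27.3 CPM with indole and 38.2 CPM with DMF in wild type, and was 1.40-fold lower (1.25 to 1.56). PMS2, which acts after mismatch recognition, had 12 and 11.9 CPM, a ratio of 1.01 (0.840 to 1.21). PMS2, CHEK2 and FANCD2 have known pseudogene copies, and reads from such copies may be mixed with theirs. The 5 further mismatch repair genes past the minimum had a median of -0.07, and LIG1, the ligase that seals the new strand, was 1.78-fold lower (1.69 to 1.88).

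The promoters of genes that were lower and of FANCL, which was higher, were set side by side, since many S phase genes carry E2F or CCAAT elements before their start. The windows are RefSeq's for GRCh38.p14, 250 bases before to 50 after a start. They cover 28 of the 31 members with 41 windows, and NBN, RAD54B and FANCI have none in the table. Shown are the bases from 180 before the start to 12 after it for 7 of the 18 members with 1 window, picked after their values were seen, 5′ to 3′ on the gene's strand. Capitals mark matches to E2F (TTTCCCGC, TTTCGCGC, TTTGCCGC or TTTGGCGC) or to CCAAT on either strand. FANCA is at chr16:89816636-89816827 on the minus strand and FANCD2 at chr3:10026257-10026448 on the plus strand. CLSPN is at chr1:35769967-35770158, XRCC3 at chr14:103715440-103715631, FANCF at chr11:22625812-22626003, FANCL at chr2:58241314-58241505 and FANCG at chr9:35079931-35080122, all on the minus strand. FANCG, which was lower, has no match, nor has FANCL.
FANCA: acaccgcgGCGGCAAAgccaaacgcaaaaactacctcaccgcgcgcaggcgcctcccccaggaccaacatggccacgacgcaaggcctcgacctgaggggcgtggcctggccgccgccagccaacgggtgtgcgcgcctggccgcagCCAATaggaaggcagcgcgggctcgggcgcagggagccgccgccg
FANCD2: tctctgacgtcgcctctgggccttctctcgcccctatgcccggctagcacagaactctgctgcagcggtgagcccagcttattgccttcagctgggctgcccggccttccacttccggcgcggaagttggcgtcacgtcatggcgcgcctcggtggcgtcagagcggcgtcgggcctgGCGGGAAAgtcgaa
CLSPN: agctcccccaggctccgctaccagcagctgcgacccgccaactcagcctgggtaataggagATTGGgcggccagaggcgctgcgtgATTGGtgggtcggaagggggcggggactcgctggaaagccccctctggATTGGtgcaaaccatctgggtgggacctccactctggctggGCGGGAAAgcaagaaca
XRCC3: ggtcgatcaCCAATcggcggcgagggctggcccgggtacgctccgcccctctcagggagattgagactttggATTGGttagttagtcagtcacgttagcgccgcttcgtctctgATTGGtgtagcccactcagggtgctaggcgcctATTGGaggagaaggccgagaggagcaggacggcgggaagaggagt
FANCF: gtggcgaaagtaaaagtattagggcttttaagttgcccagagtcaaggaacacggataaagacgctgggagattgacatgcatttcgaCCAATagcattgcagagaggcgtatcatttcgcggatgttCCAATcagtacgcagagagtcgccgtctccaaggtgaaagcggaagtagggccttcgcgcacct
FANCL: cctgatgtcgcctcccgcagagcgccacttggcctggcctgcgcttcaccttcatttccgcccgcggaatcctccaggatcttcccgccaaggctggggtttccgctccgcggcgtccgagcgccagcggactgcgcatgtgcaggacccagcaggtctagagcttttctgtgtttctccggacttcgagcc
FANCG: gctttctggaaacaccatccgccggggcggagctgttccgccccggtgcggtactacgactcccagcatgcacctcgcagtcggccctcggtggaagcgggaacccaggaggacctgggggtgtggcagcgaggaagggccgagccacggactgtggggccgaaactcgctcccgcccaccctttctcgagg

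An E2F match was found in a window of 8 of the 28 members (EXO1, XRCC2, FANCA, FANCC, FANCD2, CLSPN, MSH6 and PMS2). By window, it was in 9 of 41 member windows (22%), 5.0% of 10590 windows of genes past the expression minimum and 3.31% of all 35116. CCAAT was in 20 of the 41 member windows (48.8%), 35.1% of windows of genes past the minimum and 34.6% of all. The 41 windows include those of ATM, BRIP1 and CHEK2, which lie below the minimum and all carry CCAAT. The member share is thus not like for like with that of genes past the minimum. Those genes were matched to windows by exact symbol (7326 genes), and members by synonym as well. Among members past the minimum, those with an E2F match had a median log2 ratio of -0.33 with indole in wild type (8 genes) and those without had -0.15 (17 genes). With a CCAAT match the median was -0.38 (12 genes) and without it -0.12 (13 genes). The matches do not sort the genes cleanly. PMS2 carries both and had a ratio of 1.01, XRCC2 carries E2F and had 1.03, and RAD51C and FANCG, both lower, carry neither in their windows. The cell cycle element CHR (TTTGAA or TTCGAA) was in 7.32% of member windows, 11.3% of windows of genes past the minimum and 16.4% of all. Its member matches were in FANCC, ATM and BRIP1, of which FANCC alone is past the minimum. For ETS (CCGGAAGT) the shares were 12.2%, 8.08% and 4.14%, and for the NRF1 element 2.44%, 2.08% and 1.24%. All motifs were searched on both strands.

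Other genes of the same pathways had medians on the same side in wild type with indole. The further genes named from each list were picked for the size of their ratios in this comparison. Past the minimum were 20 further recombination genes, with a median log2 ratio of -0.32. Of these, 18 had a ratio below 0 and 3 passed 1.5-fold, all of them lower. EME1, a subunit of a structure-selective nuclease, was 1.93-fold lower (1.67 to 2.24) and TOP3A, the topoisomerase that works with BLM, 1.55-fold (1.38 to 1.75). TOP3A, picked in this way, and BLM were both lower in this library. The 11 further Fanconi genes had a median of -0.26, and 2 of them (18.2%) passed 1.5-fold, both lower. UBE2T, the ubiquitin-conjugating enzyme that works with FANCL, had 73.6 CPM with indole and 164 CPM with DMF and was 2.23-fold lower (2.09 to 2.37). STRA13, a subunit that binds DNA with FANCM, was 2.10-fold lower (1.96 to 2.25). Thus FANCL was higher while its conjugating enzyme was lower in the same library.

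Further damage signalling genes had a median of -0.11 over 21 genes. Of these, 2 were lower by 1.5-fold or more (9.52%), near the 9.15% of all genes. H2AFX, the histone marked at breaks, was 1.90-fold lower (1.84 to 1.98) and MDC1, which reads that mark, 1.63-fold (1.53 to 1.73). Repair pathways that do not copy a sister chromatid also had medians below 0. Of 10 end joining genes 2 were 1.5-fold lower (20%), with a median of -0.23. XRCC6, a subunit of the Ku ring, was 1.91-fold lower (1.87 to 1.94). Nucleotide and base excision repair genes had a median of -0.23 over 21 genes, with 4 lower and 1 higher. XRCC1, a scaffold of base excision repair, was 1.66-fold lower (1.56 to 1.77), while ERCC6, which acts at stalled RNA polymerase, was 1.81-fold higher (1.47 to 2.23).

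Cell cycle genes were lower in the same library by more. S phase genes had a median log2 ratio of -0.55 over 19 genes, 9 of them 1.5-fold lower, where 9.15% of all genes were. TYMS, the thymidylate synthase, stood 2.22-fold below its DMF level (2.15 to 2.29). Mitosis genes had -0.98 over 19 genes, 16 of them 1.5-fold lower, with BIRC5, the chromosome passenger survivin, 2.54-fold lower (2.43 to 2.64). MKI67, a proliferation marker on that list, had 39.5 CPM with indole and 41.0 CPM with DMF, a ratio of 0.964 (0.874 to 1.06). CDKN1A, the p21 inhibitor of cyclin-dependent kinases, had 421 CPM with indole and 267 CPM with DMF. In the IDO1 line with indole against DMF the S phase and mitosis medians were 0.08 and -0.01. These genes moved with the repair genes, and their part in the result was not tested.

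**Figure D3:**
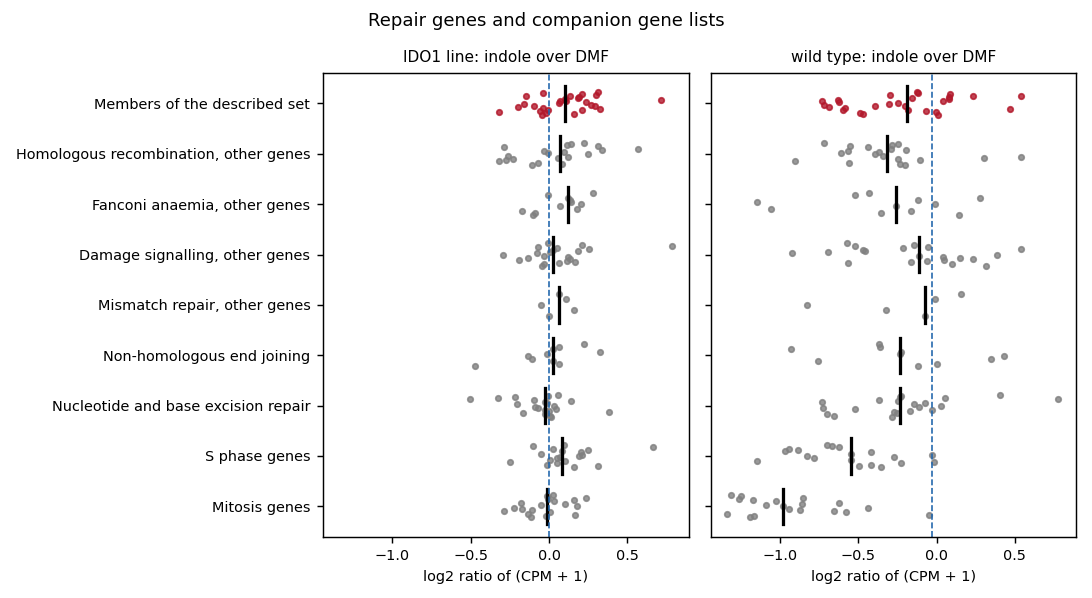
Log2 ratios of CPM plus 1, indole over DMF, in the IDO1 line (left) and in wild type (right), for the 28 repair genes past the minimum (red) and for companion lists (grey), 1 point per gene. Black bars are list medians, and the dashed line is the median of all 9884 genes. In wild type the members' median of -0.19 lies between those of all genes (-0.03) and of S phase genes (-0.55).

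Transcript length moved with the wild type ratios over all genes (Pearson 0.29 with log length), and GC content did not (0.004). Over the 28 members the correlations were 0.17 with log length and -0.52 with GC content. Over all genes with a matched transcript, the median log2 ratio was -0.24 in the shortest quintile and 0.14 in the longest, and in the IDO1 line it was 0.02 and -0.03. FANCL was the only member in the shortest quintile and stood above 0 (0.47), against the direction of that quintile. The 6 members in the longest quintile, where BRCA2, MRE11A and RAD50 lie, had a median of 0.01. With the trend of GC content and length removed, 7 members were at least 1.5-fold lower, where 6.44% of 9749 genes were, and FANCL was 1.5-fold higher, where 7.19% were. Those 7 were FANCA, FANCD2, BLM, MSH6, XRCC3, RAD51C and CLSPN, so FANCF and FANCG dropped below the fold and MSH6 and CLSPN passed it.

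**Figure D4:**
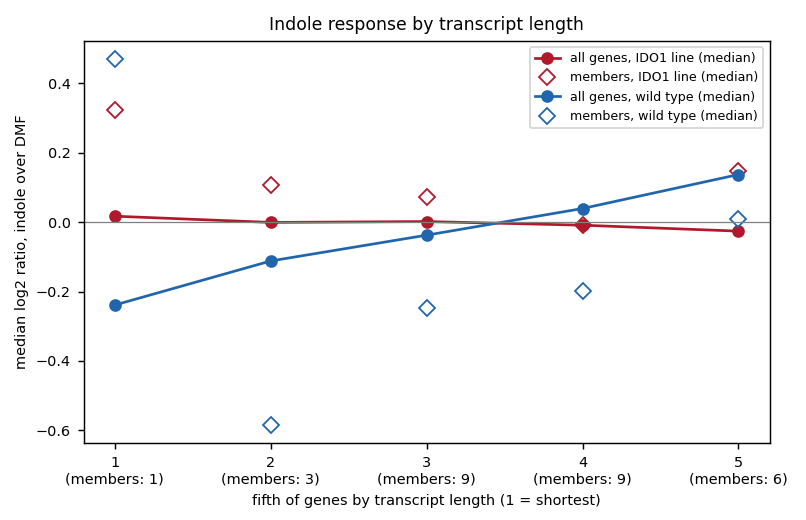
Median log2 ratio of indole over DMF by quintile of transcript length, over all genes (filled circles, lines) and over the repair genes (open diamonds), in the IDO1 line (red) and in wild type (blue). In wild type the line for all genes runs from -0.24 in the shortest quintile to 0.14 in the longest.

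In the IDO1 line, the repair genes lay close to their DMF level with indole, with BLM as the exception. The median log2 ratio of the 28 members was 0.10, against 0.00 over all genes. BLM had 23.0 CPM with indole and 13.6 CPM with DMF and was 1.69-fold higher (1.46 to 1.96). It was the only member past 1.5-fold, where 0.526% of all genes were as much higher, and 0 were 1.5-fold lower, where 0.395% of all genes were. At 5 to 50 CPM these shares of all genes were 0.672% and 0.576%. Past 2-fold were 0 members, where 0.0506% of all genes were higher and 0.0304% lower. FANCL had 19.3 CPM with indole and 15.2 CPM with DMF, 1.27-fold higher (1.09 to 1.47), so it was higher in both lines. BRCA1 had 18.0 CPM with indole and 14.3 CPM with DMF (1.26-fold, 1.08 to 1.47) and PALB2 15.5 and 12.4 CPM (1.25-fold, 1.06 to 1.48). CHEK1 had 7.89 CPM with indole and 10.1 CPM with DMF and was 1.28-fold lower (1.04 to 1.58). CHEK2, below the minimum, had 27 reads with indole and 58 with DMF, 1.80-fold lower (1.12 to 2.96). BRIP1, the helicase that binds BRCA1, also lies below the minimum and had 91 reads with indole and 72 with DMF, 1.51-fold higher (1.09 to 2.08).

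Set side by side, the indole responses of the lines shared no library. Of the 28 members, 11 had a ratio above 0 in the IDO1 line and below 0 in wild type, 6 were above 0 in both, 9 below 0 in both and 2 below 0 in the IDO1 line and above 0 in wild type. The shares of all 9884 genes in these classes were 27.6%, 21.7%, 25.4% and 25.3%. For BLM the response in the IDO1 line exceeded that in wild type by 1.43 on the log2 scale (counting interval 1.11 to 1.75). The excess was 1.03 for FANCA (0.79 to 1.26), 0.90 for XRCC3 (0.66 to 1.13) and 0.88 for RAD51C (0.61 to 1.14). For MRE11A it was -0.80 (-1.32 to -0.28). For XRCC2, EXO1, ATR and PMS2 the differences were 0.04, 0.02, 0.01 and -0.06, with intervals that reach 0.41, 0.38, 0.44 and 0.30. Whether the responses differ beyond replicate error cannot be tested with 1 library per group.

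The difference between the lines was then taken within each treatment. With indole, most repair genes stood higher in the IDO1 line. Of 28 members, 10 were at least 1.5-fold higher (BLM, RAD51C, XRCC2, XRCC3, RAD54L, FANCA, FANCE, FANCD2, CLSPN and MSH6), where 11.1% of all genes were, and 0 were 1.5-fold lower, where 9.43% were. At 5 to 50 CPM the shares of all genes were 9.39% higher and 10.9% lower. On the scale of CPM plus 1, 0 members passed 2-fold, where 2.11% of all genes were higher and 1.99% lower. The median log2 ratio was 0.48 over the members and 0.03 over all genes. FANCA had 38.8 CPM in the IDO1 line and 19.3 CPM in wild type, a ratio of 2.01 (1.78 to 2.29). BLM had 23.0 and 11.4 CPM in the IDO1 line and in wild type, a ratio of 2.03 (1.72 to 2.39), and RAD51C 29.8 and 14.9 CPM, a ratio of 2.0 (1.73 to 2.31). CLSPN had 28.2 CPM in the IDO1 line and 14.9 CPM in wild type (1.90, 1.64 to 2.20), and MSH6 49.3 and 27.3 CPM (1.81, 1.62 to 2.01). FANCL, RAD50 and PMS2 had ratios of 1.07, 0.953 and 0.972, with intervals that include 1. This comparison shares the wild type library with indole with the first one, so its values are not a further observation of the same difference. The S phase and mitosis genes had medians of 0.73 and 1.14 here, with 14 and 18 of 19 genes at least 1.5-fold higher, and their part in the result was not tested.

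With DMF, the lines were closer. The median log2 ratio of IDO1 line over wild type was 0.12 over the members and 0.00 over all genes. Above 0 were 23 of 28 members, where 49.1% of all genes were. XRCC2 was the only member past 1.5-fold, where 0.971% of all genes were as much higher, and 0 were 1.5-fold lower, where 1.31% were. At 5 to 50 CPM the shares were 1.33% and 1.38%. Past 2-fold were 0 members, where 0.273% of all genes were higher and 0.152% lower. XRCC2 had 14.9 CPM in the IDO1 line with indole, 14.2 CPM in the IDO1 line with DMF, 9.30 CPM in wild type with indole and 9.03 CPM in wild type with DMF. Both libraries of the IDO1 line were thus above both of wild type, by 1.61-fold with indole (1.33 to 1.95) and 1.57-fold with DMF (1.31 to 1.88). With DMF, CLSPN had 28.6 CPM in the IDO1 line and 21.3 CPM in wild type (1.34-fold, 1.19 to 1.52), and RAD54L 41.9 and 33.1 CPM (1.27-fold, 1.15 to 1.40). MRE11A had 6.53 and 4.47 CPM (1.46-fold, 1.12 to 1.91). BLM went the other way, with 13.6 CPM in the IDO1 line and 18.1 CPM in wild type, 1.33-fold lower (1.14 to 1.55).

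**Figure D5:**
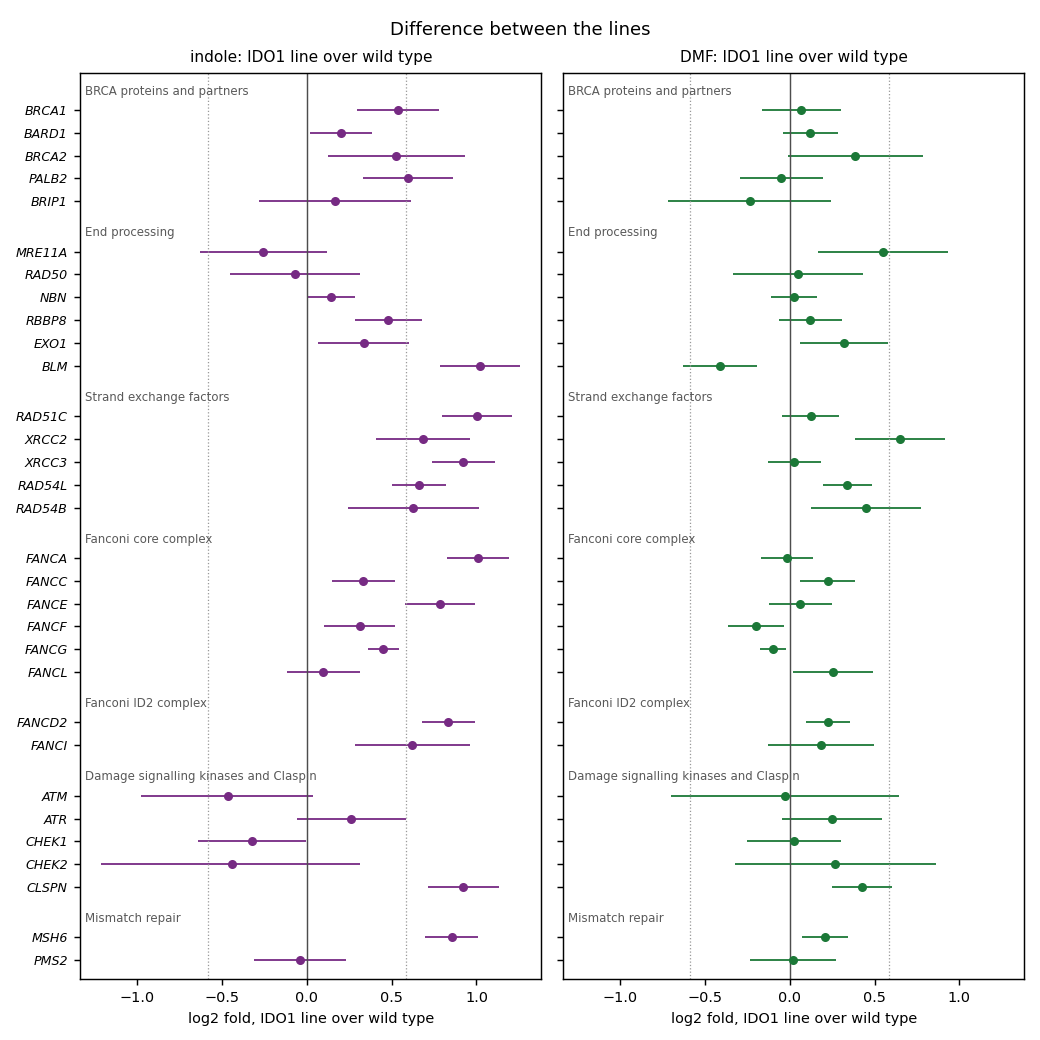
Log2 fold of the IDO1 line over wild type for each repair gene, with indole (left) and with DMF (right). Bars are 95% intervals of counting error, and dotted lines mark 1.5-fold. XRCC2 lies past 1.5-fold in both panels, while BLM lies on opposite sides of 0.

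The IDO1 line with indole was also set against wild type with DMF, which leaves out the library that stood apart. This pair differs in both line and treatment, so its values cannot be assigned to either. It reuses libraries described above and is not a further observation. The median log2 ratio was then 0.26 over the 28 members and 0.00 over all genes. Above 0 were 24 members, where 49.4% of all genes were. At least 1.5-fold higher was 1 member and 0 were lower, where 1.15% and 1.31% of all genes were. The mesenchymal gene VIM, which HCT116 expresses little, had 1120 and 1226 reads in the IDO1 line with indole and with DMF, against 55 and 88 in wild type. The mesenchymal marker list summed to 150 and 149 CPM in the IDO1 line with indole and with DMF, against 103 and 92.6 CPM in wild type, with COL1A2 and DCN at 0. Of the 3 mesenchymal markers past the minimum, VIM and SPARC were higher in the IDO1 line and COL1A1 was lower, with log2 ratios of -0.39 with indole and -0.16 with DMF. Of the 7 epithelial markers past the minimum, 6 had a lower level in the IDO1 line with each treatment, with medians of -0.41 with indole and -0.35 with DMF. The epithelial list summed to 4091 and 3776 CPM in the IDO1 line with indole and with DMF, against 4930 and 5207 CPM in wild type. The epithelial medians were thus close with either treatment, while the median of the members was 0.48 with indole and 0.12 with DMF. The part of these markers in the result was not tested.

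A fit of line and treatment over all 4 libraries tested both effects across 13122 genes, with 1 residual degree of freedom. That residual is the difference in indole response between the lines plus library noise. Opposite responses in the lines, such as that of BLM, thus count as error in this fit. Its lack of calls does not bear on effects confined to 1 line. By edgeR's quasi-likelihood test with Benjamini-Hochberg adjustment, 0 of 31 members passed 0.05 for indole, where 0.00% of all genes did. Each member had an adjusted p of 0.9997, and ATM alone was under 0.05 unadjusted, where 3.41% of all genes were. Its log2 fold change was 0.98 (SE 0.405), higher in 2 of 2 lines. For the line, 0 of 31 members passed, where 2.45% of all genes did. By edgeR, 6 members were under 0.05 unadjusted (CLSPN, XRCC2, FANCD2, MSH6, RAD51C and RAD54L), where 9.99% of all genes were. The smallest adjusted p was 0.216, for CLSPN, with a log2 fold change of 0.66 (SE 0.238), higher in the IDO1 line in 2 of 2 treatments. XRCC2 had a log2 fold change of 0.66 (SE 0.260) and an edgeR adjusted p of 0.303. DESeq2 called 0 members for either effect, where it called 0 of 16748 genes for indole and 86 of 15145 for the line. Under 0.05 unadjusted by DESeq2 were 0 members for indole and 1 for the line, where 129 and 720 of all genes were.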

How the data were processed

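RNA was extracted by kit and amplified with the Ion AmpliSeq Transcriptome kit, per the labels' protocols. The deposited files hold raw counts of reads per amplicon target, 1 count column per group, which the authors left unnormalized, judged from the header and the whole numbers. The design text states 2 replicates each; whether a column pools them is not stated, so each group is 1 library. The submitters' processing notes name hg19 as build; aligner and counter are not given in the sources used here. No label says that the libraries are separate cultures, so the library noise behind any p-value may be technical.

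Members and lists were chosen with earlier results of these data known. The genes named are the members, up to 3 genes of each companion list with the largest log2 ratio in wild type with indole, and MKI67 and CDKN1A; EPCAM, VIL1, PTPRC, SPARC, COL1A1, COL1A2, DCN and VIM are markers. Some genes that this rule names are not reported here.

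Counts were scaled by TMM (edgeR 4.0.16). Log2 ratios use CPM plus 1, which understates low genes, and the call was 1.5-fold among genes with a mean of at least 5 CPM. Folds in the text are ratios of CPM without a pseudocount. Their 95% intervals (exact Clopper-Pearson, on the 2 read counts) and the normal 95% intervals of response differences cover counting error only and treat reads as independent. PCR reads lacking molecular identifiers are not independent, so these intervals may be too narrow even for counting error. The additive fit used filterByExpr and glmQLFTest; DESeq2 1.42.0 was the alternative. SE was back-calculated from the F statistic. The fit was tested on simulated data. Transcript length and GC are those of the longest coding GENCODE 29 transcript, matched by symbol for 98.6% of the genes past the minimum, and their trend was removed as medians in 10 by 5 bins.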

Additional observations from a re-analysis of the deposited data

Results flagged for a closer look

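For 6 members the indole response went opposite ways in the lines, with the counting intervals of both ratios off 1 (6 of 28 past the minimum). Of all 9884 genes past it, 9.81% were higher in the IDO1 line and lower in wild type by this rule, and 7.70% the reverse. Among genes with a mean of 5 to 50 CPM these shares were 6.24% and 6.14%. The response in the IDO1 line minus that in wild type was 1.43 on the log2 scale for BLM, 1.03 for FANCA, 0.90 for XRCC3, 0.72 for FANCE, 0.65 for MSH6 and 0.65 for PALB2. Each was higher with indole in the IDO1 line and lower with indole in wild type. The difference was not tested, as each group is 1 library.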

How the results depend on the processing

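No paired analysis was possible because each group has 1 library. No library was left out of the additive fit, since 3 libraries leave no residual degree of freedom. Shares in brackets are of all genes under the same setting. For wild type with indole against DMF, 7 members were 1.5-fold lower (9.15%). Library totals gave 0 lower (4.71%) and 2 higher (13.7%). A pseudocount of 5 CPM gave 3 lower (6.83%), a mean of 50 CPM gave 1 (13.6%) and a call at 2-fold gave 0 (1.40%). There, 0 were higher (6.95%). A pseudocount of 0.25 CPM gave 1 higher (7.70%), as did a mean of 1 CPM (8.74%) and no minimum (5.86%). The trend removed, chosen after seeing the data, also gave 1 (7.19%). The 2-fold call and centred library totals were also chosen after seeing the data. At a mean of 50 CPM FANCG alone was left, with medians of -0.59 in wild type with indole against DMF and -0.10 in the IDO1 line against wild type with DMF. At that mean the counts of higher members were 0 in each comparison, as they were with the 2-fold call. At that mean, 3.72% and 0.275% of all genes were higher with indole in wild type and in the IDO1 line. Between the lines, 0.358% were higher with DMF and 14.1% with indole. The XRCC2 call with DMF was lost (0) with a pseudocount of 5 CPM, where 0.546% of all genes were 1.5-fold higher. Both additive fits kept 0 members in all 4 alternatives, where 0 to 10 of all genes passed for indole and 86 to 396 for the line. Of 124 values of single members under each other scaling, 9 moved beyond their counting interval with library totals and 0 with median-of-ratios size factors, and 0 called values changed sign. Members with few reads, such as ATM and CHEK2, have wide intervals.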
